A study of Ceratotherium simum simum with 6 samples.

Results

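The genes that make, take up, move and store cholesterol were followed in granulosa cells of the southern white rhinoceros (Ceratotherium simum simum). Granulosa cells line the ovarian follicle around the oocyte. The set was chosen by 37 gene names of the form used in UniProt entries. Of these, 34 were present among 22569 loci with a gene name and 25906 loci in all. The names ERG19, ERG7 and NPC1 were not found, so lanosterol synthase and the lysosomal cholesterol transporter NPC1 were not analysed here. MVD1, another name of mevalonate diphosphate decarboxylase, was found in place of ERG19.

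RNA-seq was made from total RNA of 2 animals, rhino 2 and rhino 1, with 3 libraries each. Both animals are labelled wild type, and their cells are labelled in vivo and as collected ahead of IVM, the maturation of oocytes in vitro. Ages and follicle stages are not given in the labels, and no treatment separates the animals. Each group is 1 animal, and nothing says that its libraries came from separate follicles or collections, so the spread behind each p-value is that of these libraries alone and may be technical.

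Cells obtain cholesterol by making it from acetyl-CoA and by taking up lipoproteins. Synthesis runs from acetyl-CoA through mevalonate to farnesyl diphosphate, from there to squalene and lanosterol, and then through a series of demethylations, reductions and double bond shifts to cholesterol. SREBP transcription factors switch on most of these genes when sterol in the endoplasmic reticulum is low. SCAP escorts the SREBPs to the Golgi for cleavage, and INSIG proteins hold SCAP back when sterol is plentiful. In the ovary, cholesterol is also the starting material of every steroid hormone. Granulosa cells before ovulation lie in an avascular layer and depend largely on the high-density lipoproteins of follicular fluid and on their own synthesis.

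Depth and strand differed between the libraries. The totals were 1523904, 703708 and 1078480 counts in rhino 2 replicates 1, 2 and 3, and 13288936, 672410 and 1449450 counts in rhino 1 replicates 1, 2 and 3. In rhino 1 replicate 1, 99.4% of the counts of the 34 genes lay on the annotated strand, while in the other 5 libraries between 0% and 0.413% did. Unnamed assembled models on the opposite strand were therefore joined to a named gene where they covered at least 50% of the shorter exonic length. Each was joined only to the gene that shared the most bases with it, and 33 of the 34 genes had such a model. Levels are given as CPM, counts scaled to a library total of 1000000, and a locus with no counts has an upper limit of 3 counts, which is 0.226 CPM in the deepest library and 1.97 to 4.46 CPM in the others. These limits cover counting error only. Of the 8 granulosa markers, all 8 reached 1 CPM in every library. Of the 4 oocyte markers, GDF9 had 3.91 CPM (52 counts) in rhino 1 replicate 1, and ZP2, ZP3 and BMP15 were at 0 there. All 4 were modelled only on the strand where that library has its counts, so their zeros in the other 5 libraries say nothing of oocyte RNA.

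The summed RNA level of the cholesterol synthesis enzymes was lower in rhino 2 than in rhino 1. No single gene of the set passed the test between the animals. Fold changes are log2 values of rhino 2 over rhino 1, from edgeR's quasi-likelihood test over all 8532 loci with enough counts, and the threshold was a Benjamini-Hochberg adjusted p of 0.05. Of the 34 genes, 30 were tested, and PMVK, LBR, VLDLR and LIPS had too few counts. Of the 30, 0 passed the threshold, against 0.551% (47) of all loci tested. At an unadjusted p under 0.05, 8 of the 30 were lower and 0 higher in rhino 2, where over all loci 6.48% were lower and 6.42% higher. THIC, FPPS, FDFT, SC5D, DHCR7, SRBP1 and SRBP2 were among the 8. DESeq2 called 6 of the 30, all lower in rhino 2, where it called 7.40% of all loci, 3.74% as lower. It gave no adjusted p for NSDHL, DHB7, EBP, ABCA1 and PLIN3, so these could not be called. Its shares of all loci also count loci with no adjusted p. Limma-voom called 3 of the 30, all lower, where it called 8.93% of all loci, 1.69% as lower. EdgeR with no filter on low counts called 3 genes of the set, all lower, where it called 2.18% of all loci, 1.21% as lower. Without rhino 1 replicate 1 edgeR called 1 gene of the set, as lower, where it called 0.572% of all loci, 0.222% as lower.

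Most fold changes below 0 were those of synthesis enzymes. The median fold change of the 30 genes was -0.59, against 0.04 over all loci tested, with 21 below 0 and 9 above. Among the 18 enzymes tested, 16 were below 0, with a median of -0.74, where 47.2% of all loci were below 0. In 10 of the 18 enzymes every library of rhino 2 was below every library of rhino 1, where 14.0% of all loci were separated in this way. The 12 tested genes of control, uptake, transport and storage had a median of 0.03, with 5 below 0 and 7 above. That balance depended on the processing, since the median was -0.42 with limma-voom and -0.37 without rhino 2 replicate 3, each with 8 of the 12 below 0. Among the 27 tested genes whose locus carries 1 gene name, 19 were below 0 and 7 were lower at an unadjusted p under 0.05. The counts are descriptions, and the difference between the enzymes and the other genes was not tested. In these bulk samples, fewer cells of a type and less RNA per cell cannot be told apart.

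**Figure D1:**
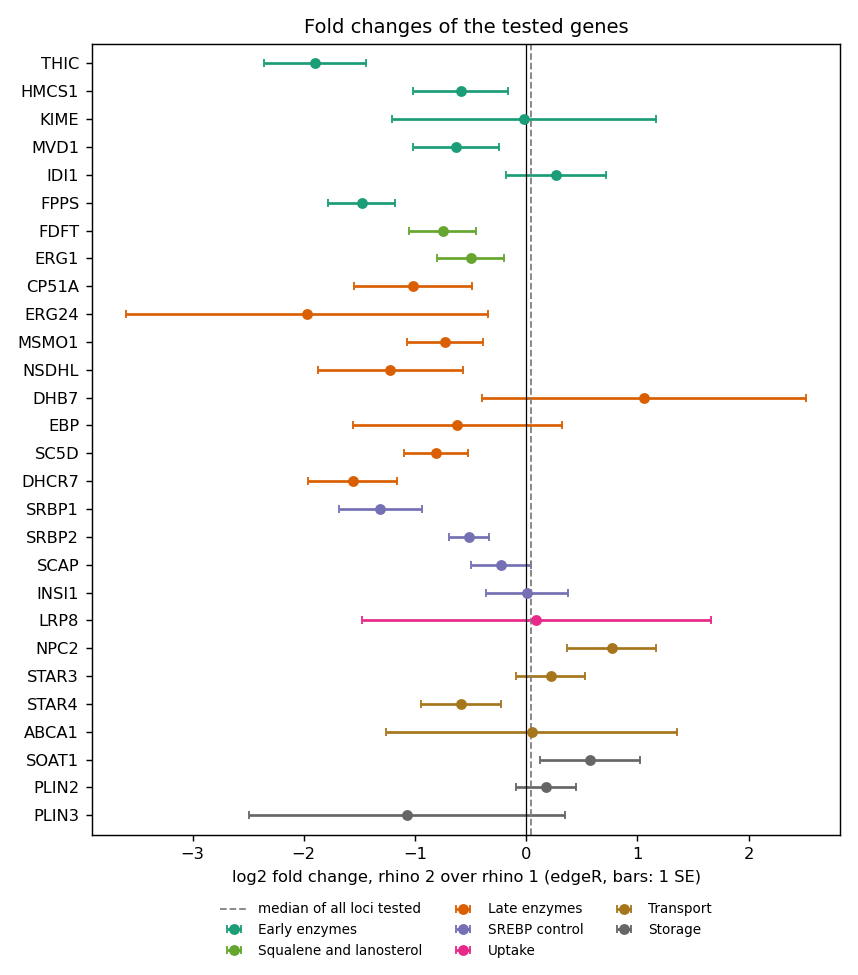
Fold change of 28 tested genes, rhino 2 over rhino 1 on the log2 scale (x axis), with bars of 1 standard error and colours by role. Points of the synthesis enzymes lie left of 0 in 14 of 16 cases, while the transport and storage genes lie around the dashed line, the median of all loci tested.

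The early enzymes carry acetyl-CoA to farnesyl diphosphate, the precursor of sterols and of the prenyl groups of proteins. Of 8 found, 7 were tested, and 6 of these had a fold change below 0. FPPS (FDPS, farnesyl diphosphate synthase) lies on scaffold 2 from 41887380 to 41897180, on the minus strand, with 11 exons. It had 34.8, 54.0 and 56.6 CPM in rhino 2, against 165, 116 and 149 CPM in rhino 1. The highest library of rhino 2 was well below the lowest library of rhino 1. Means were 48.4 ± 11.9 CPM in rhino 2 and 143 ± 25.0 CPM in rhino 1 (SD, n = 3 each), and the fold change of -1.48 (SE 0.30) had an edgeR adjusted p of 0.0892.

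MVD1 (MVD), which decarboxylates mevalonate diphosphate, had all libraries of rhino 2 below those of rhino 1, with 23.6 to 35.5 CPM in rhino 2 and 41.6 to 65.5 CPM in rhino 1. HMCS1 (HMGCS1), the cytosolic HMG-CoA synthase, was not separated. It had 129, 131 and 174 CPM in rhino 2, against 383, 169.5 and 134 CPM in rhino 1, so that 1 library of rhino 1 was far above the other 5. The fold change of HMCS1 was -0.59 with all libraries and 0.07 without rhino 1 replicate 1.

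IDI1, which converts isopentenyl diphosphate to its isomer, was the only early enzyme with a fold change above 0. It had 131, 180.5 and 258 CPM in rhino 2, against 104.5, 120.5 and 279 CPM in rhino 1. Both animals spanned a wide range and overlapped, and the fold change was 0.27 (SE 0.45, edgeR adjusted p 0.94). KIME (MVK, mevalonate kinase) had 17.1, 42.6 and 27.8 CPM in rhino 2, against 48.6, 0 and 42.1 CPM in rhino 1, and its fold change was -0.02 (SE 1.19, edgeR adjusted p 0.999). Leaving out 1 library at a time gave KIME fold changes from -0.61 to 0.51, so its direction was not determined. PMVK, phosphomevalonate kinase, had counts on its named strand in rhino 1 replicate 1 only, at 9.33 CPM, and 0 in the other 5 libraries. The model over PMVK on the opposite strand was assembled as 1 gene with that of its neighbours and was counted there, so PMVK could not be assessed in those 5 libraries.

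The locus taken for THIC (ACAT2, the cytosolic acetoacetyl-CoA thiolase at the start of the pathway) is uncertain. By the rule of the highest total it is a locus on scaffold 13, from 31856046 to 31860002, which carries the names TCF19 and THIC. It had 10.5, 28.4 and 16.7 CPM in rhino 2, against 77.4, 83.3 and 58.6 CPM in rhino 1, and a fold change of -1.90 (SE 0.46, edgeR adjusted p 0.128). Its neighbours in the files, CCHCR and PO5F1, are those of TCF19 in the RefSeq annotation (assembly ASM5780239v1), not those of ACAT2. Another THIC locus, on scaffold 38 from 18488611 to 18501276 with 9 exons, lies between the neighbours that RefSeq gives ACAT2. It was modelled on 1 strand only and had 73.2 CPM in rhino 1 replicate 1 and 0 in the other 5 libraries, so it was not tested. In rhino 1 replicate 1, 9 of the 1028 counts at scaffold 13 lay on the THIC model. Another 623 and 396 lay on models that run from THIC into TCF19. On the opposite strand, a model that lies within TCF19 held 36 counts in rhino 1 replicate 3 and 7 in rhino 2 replicate 2. The values at the scaffold 13 locus are therefore not safely those of the thiolase. They still enter the counts, medians and sums of the set under the name THIC.

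The squalene step commits the pathway to sterols. FDFT (FDFT1, squalene synthase) had 69.6, 111 and 56.6 CPM in rhino 2, against 120.3, 171 and 137 CPM in rhino 1. All 3 libraries of rhino 2 were below all 3 of rhino 1, with a fold change of -0.75 (SE 0.30, edgeR adjusted p 0.354). ERG1 (SQLE, squalene epoxidase) had 74.8, 109 and 151.1 CPM in rhino 2, against 151.3, 165 and 191 CPM in rhino 1. Rhino 2 was only just below rhino 1, since its highest library, replicate 3, was next to the lowest of rhino 1, replicate 1. Its fold change was -0.50 (SE 0.30, edgeR adjusted p 0.625).

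The late enzymes turn lanosterol into cholesterol, and their median fold change was the lowest of the roles. Of 10 found, 9 were tested, 8 had a fold change below 0, and that median was -1.02. DHCR7 makes cholesterol from 7-dehydrocholesterol. DHCR7 (scaffold 32, 31197335 to 31217469, minus strand, 9 exons) had 33.5, 69.6 and 40.8 CPM in rhino 2, against 206, 128 and 110.4 CPM in rhino 1. All libraries of rhino 2 were below those of rhino 1, and the fold change was -1.56 (SE 0.40, edgeR adjusted p 0.146). SC5D, the desaturase that acts just before DHCR7, had 48.6, 56.8 and 41.7 CPM in rhino 2, against 99.2, 110.1 and 68.3 CPM in rhino 1. It was separated too, with a fold change of -0.81 (SE 0.29, edgeR adjusted p 0.286).

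The C4 demethylating enzymes NSDHL and MSMO1 had fold changes of the same sign. NSDHL had 8.53 to 18.5 CPM in rhino 2 and 23.5 to 41.6 CPM in rhino 1, with a fold change of -1.22 (SE 0.65, edgeR adjusted p 0.546). MSMO1 averaged 86.3 ± 16.7 CPM in rhino 2 and 156 ± 59.5 CPM in rhino 1 (SD, n = 3 each), and its ranges overlapped. CP51A (CYP51A1), the lanosterol demethylase, averaged 59.1 ± 13.8 CPM in rhino 2 and 125 ± 71.6 CPM in rhino 1 (SD, n = 3 each). Rhino 1 replicate 2, at 44.6 CPM, lay within the range of rhino 2. The fold changes of MSMO1 and CP51A were -0.73 and -1.02, with edgeR adjusted p-values of 0.454 and 0.533.

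Several late enzymes were low or undetected in some libraries. ERG24 (TM7SF2) and LBR each carry the C14 sterol reductase activity. ERG24 had 11.2, 0 and 17.6 CPM in rhino 2, against 68.9, 0 and 49.7 CPM in rhino 1, and the replicate 2 library of each animal was at 0. Its fold change of -1.97 was the most negative of the set, but with a standard error of 1.63 (edgeR adjusted p 0.782). LBR, also a protein of the inner nuclear membrane, had 26.7 CPM in rhino 1 replicate 1 and 0 in the other 5 libraries. Its model on the opposite strand covered only some of its exons, so these zeros do not measure the whole gene.

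DHB7 (HSD17B7, the 3-ketosteroid reductase) was the only late enzyme with a fold change above 0. It had 7.22, 11.4 and 26.9 CPM in rhino 2, against 6.10, 0 and 16.6 CPM in rhino 1. The libraries overlapped, and the fold change was 1.06 (SE 1.46, edgeR adjusted p 0.923). EBP, the sterol isomerase, averaged 15.2 ± 7.42 CPM in rhino 2 and 24.3 ± 17.6 CPM in rhino 1 (SD, n = 3 each) at a locus that it shares with its neighbour TBC25. On models over the EBP end alone, counts were 11, 0 and 19 in rhino 2, against 0 and 42 in rhino 1 replicates 2 and 3. In rhino 1 replicate 1, 278 and 36 counts lay on the pair of models over the EBP end, and 191 lay on a model that spans both genes and cannot be divided between them. The other counts at this locus lay on models over the TBC25 end, so the CPM values and the fold change of EBP hold counts of both genes.

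**Figure D2:**
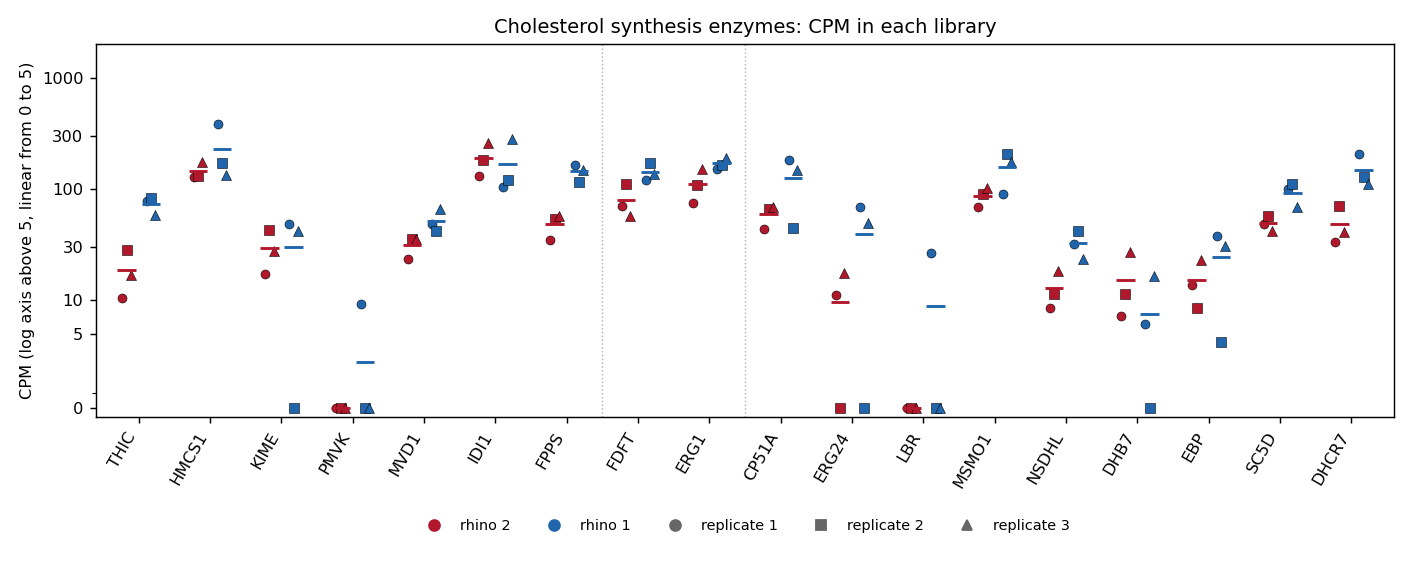
CPM of 18 synthesis enzymes in each library (y axis, logarithmic above 5 CPM and linear from 0 to 5), in pathway order from left to right with dotted lines before the squalene steps and before the late steps. Marker shapes give the replicate, short lines the mean of each animal, with rhino 2 in red to the left of rhino 1 in blue. The 3 libraries of rhino 2 lay under those of rhino 1 for 8 of them.

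Summed over the 20 enzymes, the level was 1252, 1577 and 1719 CPM in rhino 2, against 2833, 2907 and 3060 CPM in rhino 1 (95% Wilson intervals 1197 to 1310, 1487 to 1673 and 1643 to 1799 in rhino 2, and 2804 to 2862, 2782 to 3039 and 2971 to 3151 in rhino 1). No library of rhino 2 reached the lowest of rhino 1, and the mean of rhino 2 was 0.517 times that of rhino 1. Without THIC and EBP, the enzyme loci that carry a second gene name, this ratio was 0.523. Sums by stage had ratios of 0.664 for the early enzymes, 0.611 for the squalene steps and 0.419 for the late enzymes, and in all 3 stages every library of rhino 2 was below every library of rhino 1. The sums are descriptions with no test, since a sum is weighted to its most abundant genes.

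**Figure D3:**
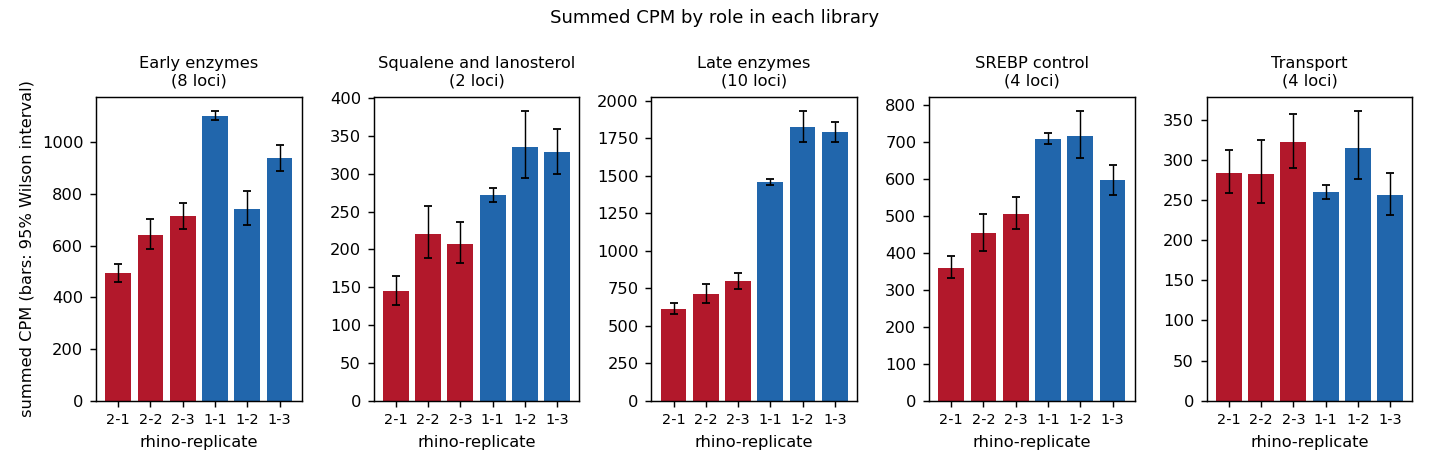
Summed CPM in each library (y axis from 0, a scale of its own in each panel) for the early, squalene and late enzymes, the SREBP control genes and the transport genes, with bars for the 95% Wilson interval. Libraries are named by animal and replicate, rhino 2 in red and rhino 1 in blue. The red bars are lower than every blue bar in the first 4 panels, with intervals that meet between rhino 2 replicate 3 and rhino 1 replicate 2 for the early enzymes, and the animals overlap for transport.

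Markers of granulosa cells and of other cell types also differed between the animals. The 8 granulosa markers summed to 9665, 15791 and 11648 CPM in rhino 2, against 22772, 15018 and 25334 CPM in rhino 1. These sums overlapped, and the ratio of their means, rhino 2 over rhino 1, was 0.588. That ratio was 0.595 for the 34 sterol genes and 0.517 for the 20 synthesis enzymes. The granulosa sums were weighted to INHA, with means of 6860 of 12368 CPM in rhino 2 and 11167 of 21042 CPM in rhino 1. AMH, a hormone of small growing follicles, had 322, 433 and 292 CPM in rhino 2, against 78.4, 90.7 and 82.1 CPM in rhino 1, and passed the threshold as higher in rhino 2 (fold change 2.16, SE 0.22, edgeR adjusted p 0.0192). INHBB, an inhibin and activin subunit, had 640, 1496 and 912 CPM in rhino 2, against 2969, 2208 and 4980 CPM in rhino 1, separated with rhino 2 lower (fold change -1.64, SE 0.44, edgeR adjusted p 0.156). Granulosa markers thus lay in both directions. The 5 dividing cell markers found (MKI67, TOP2A, TYMS, PLK1 and BUB1B) summed to 337, 547 and 327 CPM in rhino 2, against 2240, 1767 and 1610 CPM in rhino 1. Of these markers, 3 of the 5 passed the threshold as lower in rhino 2, where 0.305% of all loci tested did. Of the red cell markers, the HBB locus, which also carries the name HBE2, had 387, 809 and 631 CPM in rhino 2, against 4335, 1963 and 2987 CPM in rhino 1, and HBA was at 0 in every library. The 7 theca and stroma markers found summed to 132 to 182 CPM in rhino 2 and 353 to 3770 CPM in rhino 1, with CYP17A1 and INSL3 at 0 in every library. The high end was mostly COL1A1 in replicate 2, with 4.67, 2870 and 353 CPM in rhino 1 and 0 in rhino 2. LHCGR had 180, 56.5 and 161 CPM in rhino 1, against 22.3, 21.3 and 38.0 CPM in rhino 2. Of the 5 endothelial markers, TEK alone ran the other way, with 165, 257 and 195 CPM in rhino 2, against 99.6, 78.8 and 57.3 CPM in rhino 1. PECAM1 had 1.35 CPM in rhino 1 replicate 1 and 0 elsewhere. VWF had 3.94 and 3.76 CPM in replicate 1 of rhino 2 and of rhino 1, and 0 elsewhere. CDH5 and KDR were at 0. The 5 leukocyte markers found summed to 0 to 26.9 CPM in rhino 2 and 0 to 62.2 CPM in rhino 1. PTPRC, CSF1R, CD14 and LYZ among them were modelled on 1 strand only, and counted in rhino 1 replicate 1 alone. The sums of the other libraries are those of CD68, so these ranges do not compare leukocytes between the animals. The loci at 0 in every library were modelled on 1 strand only, so their zeros speak for rhino 1 replicate 1 alone. The part of these marker differences in that of the sterol genes was not tested.

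Among the genes of SREBP control, both transcription factors separated the animals. SRBP1 (SREBF1), which drives mainly fatty acid genes, had 47.9, 61.1 and 91.8 CPM in rhino 2, against 169.6, 256 and 116 CPM in rhino 1. SRBP2 (SREBF2; scaffold 25, 38943146 to 39002315, plus strand, 19 exons), which drives mainly cholesterol genes, had 151, 185 and 167 CPM in rhino 2, against 259, 268 and 239 CPM in rhino 1. For both, all libraries of rhino 2 were below all of rhino 1, a pattern of 14.0% of all loci tested. The fold changes were -1.31 (SE 0.37, edgeR adjusted p 0.181) for SRBP1 and -0.51 (SE 0.18, edgeR adjusted p 0.286) for SRBP2.

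SCAP and INSI1 did not separate the animals. SCAP averaged 116 ± 8.74 CPM in rhino 2 and 144 ± 37.3 CPM in rhino 1 (SD, n = 3 each), with a fold change of -0.23 (SE 0.27, edgeR adjusted p 0.902). INSI1 (INSIG1), itself a known SREBP target and a brake on the pathway, had 54.5, 85.3 and 127 CPM in rhino 2, against 114, 92.2 and 75.9 CPM in rhino 1. Its fold change was 0.01 (SE 0.37, edgeR adjusted p 0.999), and the sign turned to -0.01 with DESeq2's size factors and to -0.09 with library totals alone.

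Of the lipoprotein receptors in the set, VLDLR was at 0 in all 6 libraries, which allows up to 0.226 CPM in the deepest of them. LRP8 (the receptor for apolipoprotein E and reelin) had 40.7, 0 and 46.4 CPM in rhino 2, against 47.0, 0 and 37.3 CPM in rhino 1. Apart from the replicate 2 libraries, both at 0, its levels lay within the same range in both animals, and the fold change was 0.09 (SE 1.57, edgeR adjusted p 0.999).

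Of the 4 transport genes, NPC2 and ABCA1 had fold changes above 0 and STAR4 below, while the locus taken for STAR3 (0.22) is uncertain. NPC2, the soluble lysosomal protein that hands cholesterol on from digested lipoproteins, was the only gene of the set with every library of rhino 2 above every library of rhino 1, a pattern of 10.4% of all loci. It had 144, 142 and 161 CPM in rhino 2, against 42.1, 138 and 108 CPM in rhino 1. The gap was narrow, since rhino 1 replicate 2 lay just under the lowest library of rhino 2, and the fold change was 0.77 (SE 0.40, edgeR adjusted p 0.533). STAR4 (STARD4), a soluble sterol carrier, had 52.5, 65.4 and 75.1 CPM in rhino 2, against 145, 66.9 and 93.1 CPM in rhino 1. Its animals overlapped, with a fold change of -0.59 (SE 0.36, edgeR adjusted p 0.639). ABCA1, which exports cholesterol to apolipoprotein A-I, had 26.2, 0 and 38.0 CPM in rhino 2, against 19.5, 40.2 and 8.97 CPM in rhino 1. Levels of ABCA1 varied as much within each animal as between them, and its fold change of 0.05 (SE 1.31, edgeR adjusted p 0.999) turned to -0.06 with library totals alone.

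STAR3 (STARD3) is a late endosomal cholesterol transporter. The locus with the highest total, on scaffold 36, carries the names NEK7 and STAR3, and averaged 61.4 ± 14.0 CPM in rhino 2 and 56.6 ± 11.9 CPM in rhino 1 (SD, n = 3 each). In 5 libraries all of its counts lay on a model from 4220975 to 4276498, which ends within NEK7 and before the STAR3 model begins at 4308287. In rhino 1 replicate 1, 701 of 706 counts lay on a model that spans both genes, 5 on NEK7 and 0 on STAR3. The values at scaffold 36 are therefore those of NEK7 in these 5 libraries and enter the counts, medians and sums of the set under the name STAR3. A STAR3 locus with 14 exons on scaffold 16, from 39318344 to 39327000, has the neighbours that RefSeq gives STARD3. That locus had 53.2, 18.5 and 76.0 CPM in rhino 2, against 36.6, 35.7 and 39.3 CPM in rhino 1, and a fold change of 0.51 (SE 0.52, edgeR adjusted p 0.87). At either locus the animals overlapped.

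Storage genes overlapped between the animals. PLIN2, the coat protein of lipid droplets in steroid-making cells, averaged 69.0 ± 14.3 CPM in rhino 2 and 65.8 ± 9.37 CPM in rhino 1 (SD, n = 3 each), with a fold change of 0.18 (SE 0.27, edgeR adjusted p 0.936). SOAT1, which esterifies cholesterol for storage, had 47.2, 55.4 and 28.7 CPM in rhino 2, against 21.3, 46.1 and 29.7 CPM in rhino 1. The libraries of SOAT1 overlapped, with a fold change of 0.57 (SE 0.45, edgeR adjusted p 0.767). PLIN3, another droplet coat protein, had 6.56, 14.2 and 7.42 CPM in rhino 2, against 31.6, 0 and 29.0 CPM in rhino 1, and a fold change of -1.07 (SE 1.42, edgeR adjusted p 0.921). LIPS (LIPE, hormone-sensitive lipase) was at 0 in the 3 libraries of rhino 2, against 13.8, 0 and 4.14 CPM in rhino 1. In sum the 4 storage genes reached 129, 122 and 115 CPM in rhino 2, against 131, 122 and 120.0 CPM in rhino 1.

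**Figure D4:**
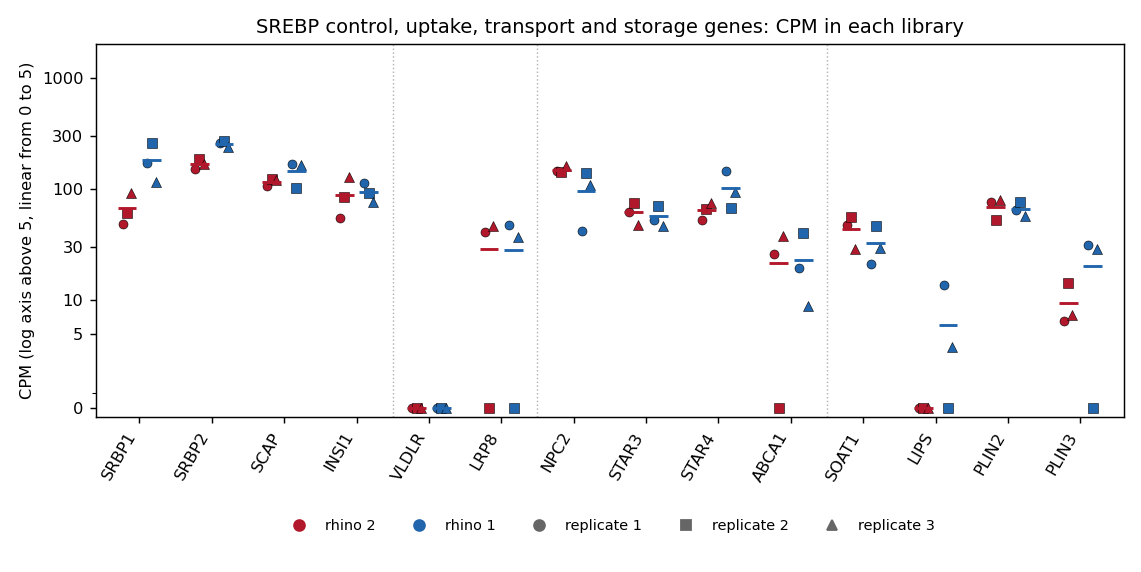
CPM of the SREBP control, uptake, transport and storage genes in each library (y axis, logarithmic above 5 CPM and linear from 0 to 5), with dotted lines between the roles. Marker shapes give the replicate and short lines the mean of each animal, rhino 2 in red to the left of rhino 1 in blue. SRBP1 and SRBP2 are separated with rhino 2 lower, NPC2 with rhino 2 higher, and the other genes overlap. The points of STAR3 are those of the scaffold 36 locus shared with NEK7.

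Between genes, levels were compared as CPM per kb of exon, the mean of the 2 animals. The length was that of the named gene model, such as 450 bases for NPC2, 867 for IDI1 and 8338 for STAR4. In all libraries but rhino 1 replicate 1, nearly all counts lay on opposite-strand models, whose lengths were not used. The order of the genes thus depends also on how their models were drawn. NPC2 stood at 272 and IDI1 at 206 CPM per kb, with ranges of 93.5 to 359 and 121 to 322 CPM per kb, so that the ranges of these genes overlapped. MSMO1, FDFT, ERG1, FPPS, SRBP2 and HMCS1 came next, between 137 and 53.8 CPM per kb. At the low end, ABCA1, PMVK, LBR and LIPS lay between 2.78 and 0.889 CPM per kb. As to presence, 24 of the 34 genes (70.6%) reached 1 CPM in all 6 libraries, where 24.5% of all named loci and 52.2% of named loci with models on both strands did so.

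**Figure D5:**
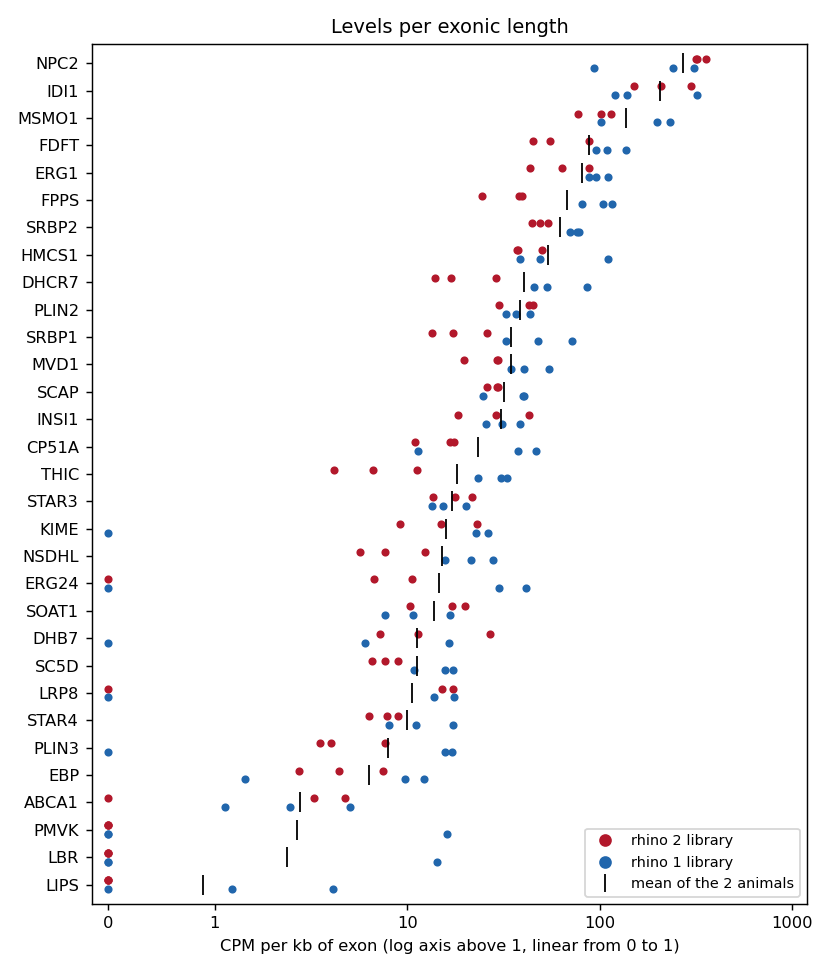
CPM per kb of exon of 31 genes (x axis, logarithmic above 1 and linear from 0 to 1), ordered from the highest at the top, with 1 point for each library, rhino 2 in red above rhino 1 in blue, and a bar for the mean of the 2 animals. VLDLR, at 0 in every library, is not drawn. NPC2 leads the genes drawn at 272 CPM per kb, and most lie between 10 and 100 CPM per kb.

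Of the wider pathway, 51 further genes were found and 39 tested, with 20 fold changes below 0, 19 above 0 and a median of -0.14. No gene among the 39 passed the threshold in edgeR, and at an unadjusted p under 0.05 there were 6 lower and 2 higher in rhino 2, where over all loci 6.48% were lower and 6.42% higher. DESeq2 called 4 of the 39 (3 as lower, CP19A and DGAT1 among them, and LPIN1 as higher), and limma-voom called 2 (CP19A as lower, LPIN1 as higher), where over all loci DESeq2 called 7.40%, 3.74% as lower, and limma-voom called 8.93%, 1.69% as lower. SCRB1 (SCARB1), the receptor for high-density lipoprotein, had 13.8, 11.4 and 32.5 CPM in rhino 2, against 40.6, 35.7 and 34.5 CPM in rhino 1, with a fold change of -0.84 (SE 0.59, edgeR adjusted p 0.708). THIL (ACAT1), the mitochondrial thiolase, and CP27A (CYP27A1), the sterol 27-hydroxylase, had fold changes of -0.79 and -0.77 (edgeR adjusted p 0.264 and 0.311). AMRP (LRPAP1), a chaperone of lipoprotein receptors, had a fold change of 0.66 (SE 0.27, edgeR adjusted p 0.368).

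Genes that use cholesterol for steroids had fold changes of both signs. CP19A (CYP19A1, aromatase, which makes oestrogen) had 180.5, 237 and 259.6 CPM in rhino 2, against 3418, 892 and 2929 CPM in rhino 1. This was the largest difference among the 39, with a fold change of -3.34 (SE 0.54, edgeR adjusted p 0.0536). CP11A (CYP11A1), which cleaves the side chain of cholesterol, had 27.6, 0 and 13.0 CPM in rhino 2, against 46.5, 107 and 61.4 CPM in rhino 1. STAR, which delivers cholesterol to that enzyme in the mitochondrion, had 36.1, 8.53 and 58.4 CPM in rhino 2, against 7.37, 0 and 12.4 CPM in rhino 1. CP11A did not overlap between the animals and STAR did. Their fold changes were -2.22 (SE 1.00, edgeR adjusted p 0.437) for CP11A and 2.40 (SE 1.27, edgeR adjusted p 0.547) for STAR. NCPR (POR), the reductase that supplies electrons to microsomal P450 enzymes, CP51A and CP19A included, had a fold change of -0.65 (SE 0.25, edgeR adjusted p 0.316).

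Of the fatty acid and triglyceride genes linked to SREBP, 9 were tested and 6 had a fold change below 0. DGAT1, which makes triglyceride, had 20.3, 28.4 and 17.6 CPM in rhino 2, against 64.6, 61.0 and 88.3 CPM in rhino 1 (fold change -1.60, SE 0.37, edgeR adjusted p 0.112). LPIN1, a phosphatidate phosphatase, had 115, 75.3 and 100.1 CPM in rhino 2, against 36.9, 25.3 and 44.8 CPM in rhino 1 (fold change 1.51, SE 0.33, edgeR adjusted p 0.104). Neither gene overlapped between the animals, and they lay in opposite directions.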

How the data were processed

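Total RNA came from the PicoPure kit and went into NEBNext Ultra II libraries, per the labels' protocols. Trimmomatic, HISAT2 and StringTie are named in the submitters' processing notes; neither their versions nor the genome build or strand setting is given in the sources used here. The files hold raw read counts as deposited, per assembled transcript (per assembled gene in rhino 2 replicate 1), per the file headers and values. Counts were summed to 40656 assembled genes. With bedtools 2.31.1, unnamed genes covering at least 50% of the shorter exonic length of a named gene on the other strand (14075) were joined to it, and unnamed pairs (675) to each other, leaving 25906 loci. A repeated name was taken at the locus with the highest total. Scaffold coordinates are those of the deposited position table. RefSeq (assembly ASM5780239v1) was used for neighbouring genes only.

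CPM used the library total. Rhino 2 was tested against rhino 1 in edgeR 4.0.16, under R 4.3.3 (TMM, filterByExpr, glmQLFit, glmQLFTest, two-sided, Benjamini-Hochberg adjustment over 8532 loci). The SE of a fold change was derived from this test, as the absolute fold change divided by the square root of the F statistic. The code was also run on simulated counts with the same dispersion at every locus and large fold changes only. That run does not give the power or the error rate of the test in these libraries. Alternatives were DESeq2 1.42.0, limma-voom (limma 3.58.1), other scalings and filters, other ways of joining strands, the replicate number as a block, and each library left out. Values per library are printed for genes with an unadjusted p under 0.05, with the highest level per kb, with the extreme fold changes of a role, or with a count of 0; HMCS1 was added after its values were seen. The members, gene lists and rules were chosen with earlier results of these data known. Reads carry no molecular identifiers, so intervals cover counting error only. Some genes enter the counts, medians and sums but are not reported here by name.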

Additional observations from a re-analysis of the deposited data

How the results depend on the processing

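With edgeR, 47 loci passed the threshold. The count was 63 with DESeq2's size factors, 88 with library totals alone (35 higher and 53 lower in rhino 2), 353 with no filter, 32 at a mean of 5 CPM, 128 with only loci modelled on both strands, 20 with unnamed loci not joined to each other, 631 with DESeq2, 762 with limma-voom, and 0 on the genes as deposited, where 239 had an unadjusted p under 0.05 and no gene of the set could be tested. Leaving out 1 library gave 0 to 49 loci: 1 without each library of rhino 2, and 49, 4 and 0 without rhino 1 replicates 1, 2 and 3.

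Of the set, edgeR called 0 genes. It called 3 with no filter, DESeq2 called 6, limma-voom called 3, and leaving out 1 library gave 0 to 1, that without rhino 1 replicate 1. FPPS and DHCR7 were among the 3 with no filter, the 6 and the 3 of limma-voom, and THIC, SRBP1 and SRBP2 among the 6. The median fold change stayed between -0.81 and -0.40 in the alternatives run. Without rhino 1 replicate 1, the library with counts on the named strand, 14 of 18 enzymes were below 0 and 11 were separated, where 21.6% of all loci were.

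The replicate numbers were not shown to pair the libraries (correlations of same-numbered deviations 0.211, 0.133 and 0.006). With the replicate block 0 loci passed, with 893 at an unadjusted p under 0.05, and the set's median was -0.51. Under the block the signs of KIME (0.45), INSI1 (-0.04) and ABCA1 (-0.25) turned.

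Of the 30 tested genes, 24 kept their direction in every alternative run. INSI1 turned to -0.01 with DESeq2's size factors, with no filter, at 5 CPM and with DESeq2, to -0.09 with library totals and to -0.21 with limma-voom. ABCA1 turned to -0.06 with library totals and -0.57 with limma-voom, and LRP8 to -1.33 with limma-voom. Without 1 library, the ranges were -0.33 to 0.28 for INSI1, -0.65 to 0.63 for ABCA1, -0.47 to 0.69 for LRP8, -0.61 to 0.51 for KIME, -0.01 to 0.85 for IDI1 and -0.88 to 0.07 for HMCS1. The cause was not tested. Depth limits the set in 5 libraries, where 1 count is worth 0.656 to 1.49 CPM.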

Other observations

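Zeros among the 34 genes fell unevenly over the libraries. Rhino 2 replicates 1, 2 and 3 had 4, 7 and 4 genes at 0, and rhino 1 replicates 1, 2 and 3 had 1, 9 and 3. The replicate 2 libraries were the smallest of each animal, but several of their zeros stood where many counts would have matched the animal's other libraries. At the mean CPM of the other libraries of the same animal, LRP8 would have had 30.6 counts in rhino 2 replicate 2 and 28.3 in rhino 1 replicate 2. ERG24 would likewise have had 10.1 and 39.8 counts in these libraries, ABCA1 22.6 in rhino 2 replicate 2, and KIME and PLIN3 30.5 and 20.4 in rhino 1 replicate 2. All of these genes had models on both strands. The cause of these zeros was not tested.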
